A study of Mus musculus with 6 samples.

Results

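The 10 genes described here encode the transcription factors of the Myc, Max and Mxd network, taken by name as Myc, Mycn, Max, Mxd1, Mxd3, Mxd4, Mxi1, Mnt, Mga and Mlx. All 10 were found among the 16281 genes counted, and all 10 had enough counts to be tested. They were measured by RNA-seq in mouse CD8+ T cells (strain C57BL/6) from the spleens of OT1 mice, which carry the T-cell receptor transgene Tg(TcraTcrb)1100Mjb in every sample, so that most of their T cells share a single specificity for an ovalbumin peptide. All cells were activated for 48 h with anti-CD3 and anti-CD28 (each at 2 μg/ml) in the presence of IL-2 (20 ng/ml) and then expanded in IL-2 for 3 days. GSK-treated cells (GSK, n = 3) received 0.5 μM GSK2879552, an irreversible inhibitor of the histone demethylase LSD1, during activation and expansion, and control cells (Veh, n = 3) received vehicle. The age of the OT1 mice is not given in the sources used here, and cells expanded in culture stand in for T cells of a living animal only in part.

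Myc is a basic helix-loop-helix leucine zipper protein that binds DNA only as a dimer with Max, mostly at the E-box CACGTG, and activates genes for growth. Max also pairs with Mnt and with the Mxd proteins Mxd1, Mxi1, Mxd3 and Mxd4, which bind the same sites and bring in the Sin3-HDAC corepressor, so Mxd and Mnt proteins oppose Myc. Mga joins Max in the Polycomb complex PRC1.6, whereas Mlx pairs with Mxd1, Mxd4 and Mnt and with the glucose-sensing factors MondoA (Mlxip) and ChREBP (Mlxipl). In T cells, Myc is induced by antigen and IL-2 and drives the growth of the cell and the change of its metabolism, and Mxd proteins are known from cells that leave the cycle or differentiate.

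With GSK, the RNA of 3 repressors of the network, Mxi1, Mxd4 and Mnt, was lower and that of the common partners Max and Mlx was higher. Mxi1 changed most, to 0.431 times its Veh level, and Mxd4 fell to 0.631 times. Myc itself was 1.12 times as high in GSK, a difference that did not pass the test (adjusted p = 0.091 by edgeR's quasi-likelihood test, with p-values adjusted after Benjamini and Hochberg over 11698 tested genes). At an adjusted p under 0.05, 2 of the 10 members were higher in GSK, against 16.6% of all genes tested, and 3 were lower, against 15.5%. In either direction 5 of 10 passed, against 32.1%. With a fold change over 1.5 as well, the cutoff of the study's methods, 0 members were higher, where 2.22% of all genes were, and Mxi1 and Mxd4 were lower, where 4.09% were. These 2 of 10 compare with 6.32% of all genes in either direction. DESeq2 called 0 members higher past this fold change as well, and at an unadjusted p under 0.05 Max, Mlx and Myc were higher, each by less than 1.5-fold. All values are from bulk RNA, so fewer cells of a type and less RNA per cell cannot be told apart.

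**Figure D1:**
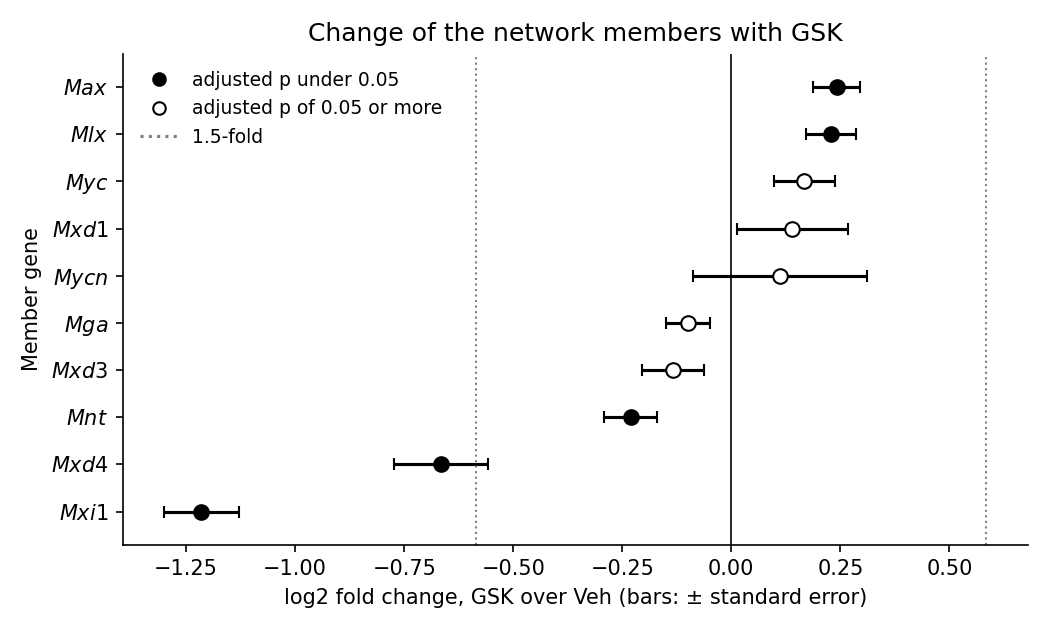
The log2 fold change of GSK over Veh (horizontal axis) is shown for each of the 10 members (vertical axis), with bars of ± 1 standard error from edgeR, n = 3 per group. Filled points (Max, Mlx, Mnt, Mxd4 and Mxi1) passed an adjusted p of 0.05, open points did not, and only Mxi1 and Mxd4 lie past the dotted 1.5-fold lines.

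Among the repressors, Mxi1, a Max-binding member of the Mxd family, had CPM values (read counts scaled to a common library total after TMM normalization) of 72.4, 74.5 and 82.9 in the Veh samples and 34.2, 36.3 and 28.5 in the GSK samples. The highest GSK sample was thus far below the lowest Veh sample. This was a log2 fold change (log2 FC) of -1.22 ± 0.086 (SE, adjusted p = 3.5e-06 in edgeR's test), and with any 1 sample left out it lay between -1.29 and -1.12. The gene lies on chromosome 19 of GRCm38 (53310128 to 53373293), where its region overlaps the predicted gene Gm30541, which was not analysed here.

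Mxd4, which can pair with either Max or Mlx, was at 27.9, 24.9 and 28.1 CPM in Veh and at 17.0, 19.7 and 14.2 CPM in GSK. Again all GSK samples were below all Veh samples, with GSK replicate 3 the lowest. The gene is on chromosome 5 (34176580 to 34187710). Its log2 FC of -0.67 ± 0.11 (SE, adjusted p = 7.2e-04, edgeR) was -0.56 without GSK replicate 3, where the call held by the adjusted p but no longer by the fold change of 1.5.

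Mnt, the broadly expressed antagonist that occupies Myc sites with Max, was at 50.4, 52.8 and 47.8 CPM in Veh and at 42.2, 43.8 and 42.6 CPM in GSK. The groups did not overlap, and the 3 GSK samples lay close together. Mnt is on chromosome 11 (74830806 to 74845725). The fall was small (log2 FC -0.23 ± 0.060 SE, adjusted p = 0.011, edgeR), and without Veh replicate 2, the highest sample, the adjusted p was 0.0503.

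The other 2 Mxd genes did not pass the test. Mxd1, which is known to rise as blood cells differentiate, ranged from 22.4 to 28.0 CPM in Veh and from 23.9 to 33.8 CPM in GSK (log2 FC 0.14, adjusted p = 0.44, edgeR). Mxd3, known from dividing cells in S phase, ranged from 35.8 to 38.7 CPM in Veh and from 32.6 to 37.1 CPM in GSK (log2 FC -0.13, adjusted p = 0.17). In both genes the samples of the groups overlapped. The region of Mxd3 overlaps Prelid1, which had 563 ± 14.3 CPM (SD, n = 3) in Veh and 504 ± 6.40 CPM in GSK, and that of Mxd1 overlaps Gm38850. The library kit keeps the strand, but the strand setting of the counting is not given in the sources used here, so reads in such overlaps are uncertain.

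Of the common partners, Max, with which Myc must pair to bind DNA and its Max-binding antagonists can pair, was at 125, 126 and 112 CPM in Veh and at 149, 139 and 141 CPM in GSK. The gene is on chromosome 12 (76937269 to 76962323). Each GSK sample was above each Veh sample, and Veh replicate 3 was the lowest of the 6. Its log2 FC was 0.24 ± 0.053 (SE, adjusted p = 0.0043, edgeR), and the adjusted p stayed at or under 0.034 with any 1 sample left out. Mlx, the Max-like protein that serves MondoA and ChREBP, was at 49.7, 54.0 and 52.7 CPM in Veh and at 62.6, 58.5 and 62.1 CPM in GSK. Its groups did not overlap either, and it rose by a log2 FC of 0.23 ± 0.057 (SE, adjusted p = 0.0088, edgeR). With 1 sample left out, the adjusted p of Mlx rose to as much as 0.05 after rounding, where the call only just held. The region of Mlx overlaps Psmc3ip, a meiotic recombination gene that was higher in GSK as well, at a lower level (11.0 ± 1.09 CPM in Veh and 15.5 ± 0.856 CPM in GSK, SD, n = 3), and its part in the counts of Mlx was not tested.

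Myc was at 186, 187 and 159 CPM in Veh and at 216, 195 and 188 CPM in GSK. The groups were separated by less than 1 CPM, and the lowest value was again that of Veh replicate 3. Its log2 FC was 0.17 ± 0.070 (SE), with an unadjusted p of 0.036 and an adjusted p of 0.091 in edgeR. With the replicate number as a block, a pairing that the sources used here do not give, the adjusted p was 0.038 (edgeR). Mycn, the Myc paralog best known from embryonic and neural tissue, was counted at 103 to 187 reads per sample, or 5.6 to 10 CPM in Veh and 6.93 to 9.39 CPM in GSK, with overlapping groups (adjusted p = 0.70, edgeR). At this depth its log2 FC of 0.11 had a standard error of 0.20. Mga, the scaffold of PRC1.6, had 152, 146 and 146 CPM in Veh and 140, 146 and 130 CPM in GSK. Its groups were parted by less than 1 CPM, and its log2 FC of -0.10 did not pass (adjusted p = 0.15, edgeR), though it did without GSK replicate 2 (adjusted p = 0.038). Its region overlaps Gm13998. In all, the groups did not overlap for 7 of the 10 members (Myc, Max, Mxd4, Mxi1, Mnt, Mga and Mlx), against 46.7% of all genes tested. The median log2 FC of the 10 was 0.0063, near that of all genes tested (-0.0039), and their summed level was 703 to 740 CPM in Veh and 676 to 729 CPM in GSK.

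For levels between genes, CPM were divided by the length in kilobases of the longest protein-coding transcript in GENCODE M21. Myc had the highest RNA level per length in both groups, with 75.9 ± 6.82 CPM per kilobase in Veh and 85.3 ± 6.14 in GSK (SD, n = 3), and Max followed with 62.3 ± 3.92 and 73.7 ± 2.69. In Veh the order went on with Mxd3, Mlx, Mxi1, Mnt, Mga, Mxd4, Mxd1 and Mycn, from 28.4 down to 2.96 CPM per kilobase. The samples of Mxd3 and Mlx overlapped, as did those of Mnt and Mga, and the other neighbours in this order did not overlap. In GSK, Mlx (31.1 CPM per kilobase) stood above Mxd3 (25.9), and Mxi1 moved from the fifth to the seventh place, where its level of 6.55 overlapped that of Mxd1 (6.08). Mnt and Mga overlapped in GSK too. This order depends on the length used. With the union of all exons, Mlx stood above Mxd3 and Mxd1 above Mxd4 in Veh, and Mxd4 was last in GSK.

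**Figure D2:**
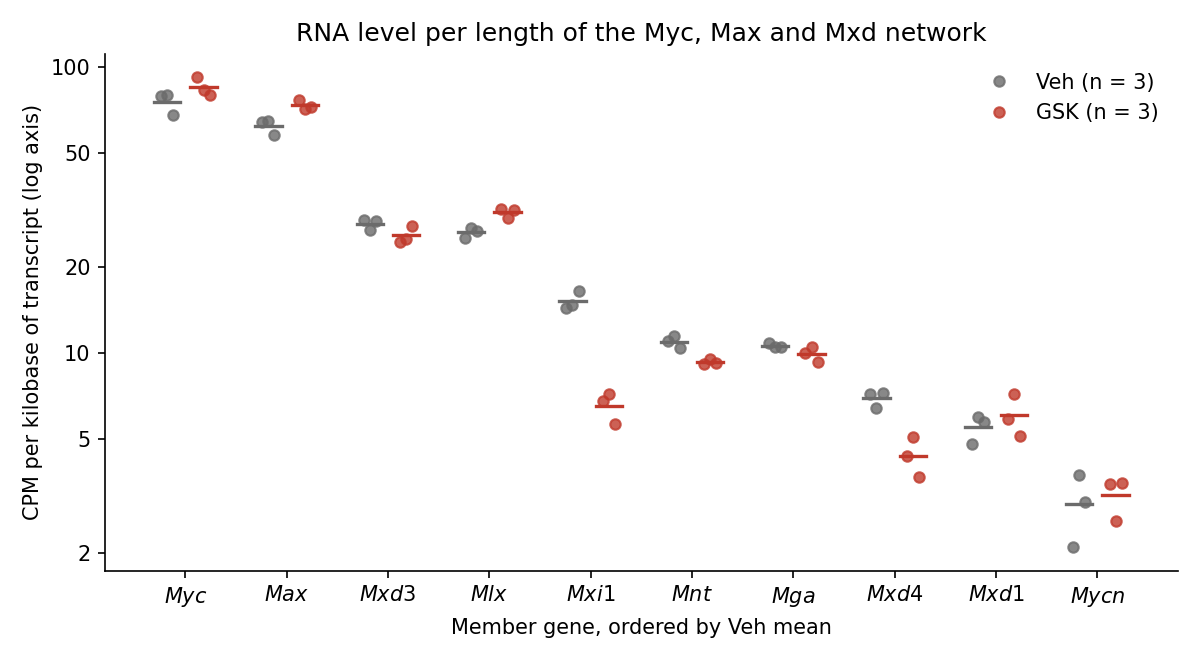
Each point is the level of 1 member in 1 sample as CPM per kilobase of its longest protein-coding transcript on a log axis, with Veh in grey, GSK in red and a line at each mean (n = 3 per group). Myc and Max lie highest in both groups, at 75.9 and 62.3 in Veh, and the 2 groups are farthest apart for Mxi1, at 15.2 in Veh and 6.55 in GSK.

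The make-up of the RNA of the 8 genes whose proteins pair with Max (Myc, Mycn, Mxd1, Mxd3, Mxd4, Mxi1, Mnt and Mga) differed between the groups. By level per length, Myc made up 50%, 50.1% and 45.2% of their sum in the Veh samples and 58.9%, 55.3% and 55.5% in the GSK samples, so every GSK sample was above every Veh sample. Mxi1 made up 9.73% ± 1.04 in Veh and 4.34% ± 0.439 in GSK (SD, n = 3). The summed level per length of the 5 antagonists Mxd1, Mxd3, Mxd4, Mxi1 and Mnt was 67.1 ± 1.70 CPM per kilobase in Veh and 52.2 ± 1.78 in GSK. Relative to this sum, Myc stood at 1.20, 1.22 and 0.987 in Veh and at 1.81, 1.54 and 1.55 in GSK. The ratio of Max to the sum of its 8 partners was 0.398 ± 0.0119 in Veh and 0.489 ± 0.0126 in GSK. These ratios combine genes already tested above and describe RNA, not protein, and they were not tested.

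**Figure D3:**
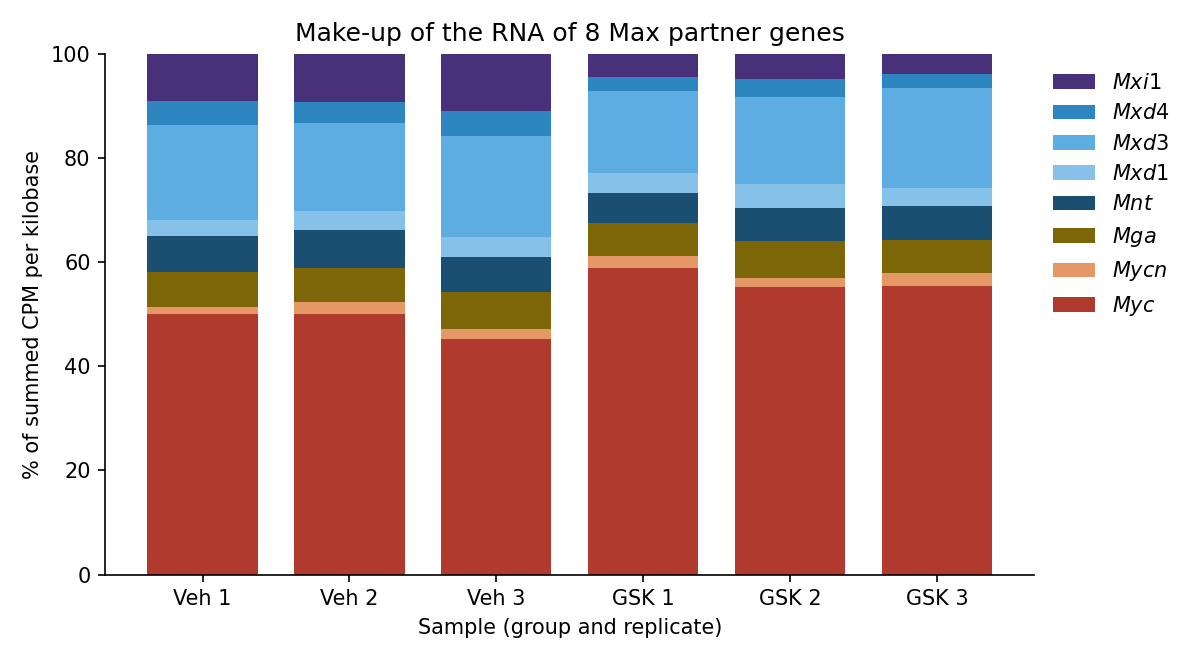
Stacked bars give, for each of the 6 samples, the share in percent that each of 8 Max partner genes had in their summed CPM per kilobase. The share of Myc (bottom) lies between 45.2% and 50.1% in Veh and between 55.3% and 58.9% in GSK, and that of Mxi1 (top) is smaller in each GSK sample.

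The E-box CACGTG, the site to which these dimers bind, stood in the promoter windows of 4 of the 9 members that have a window in RefSeq (GRCm38.p6), Max, Mlx, Mnt and Mxd4. These windows run from 250 bases before to 50 bases after a transcript start, and 11.7% of the 9422 tested genes with a window hold this motif, as do 7.15% of all 32851 windows. The motif is its own reverse complement, so both strands were read at once. Myc is the member without a window. Of the 4 members with the motif, Max and Mlx passed the test upwards and Mnt and Mxd4 downwards. A link between the motif and the change was not tested. The stretches around the motif are shown for all 4, with CACGTG in capitals and each read 5′ to 3′ on the strand of the gene.
Max: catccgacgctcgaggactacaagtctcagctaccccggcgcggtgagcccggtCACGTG
Mlx: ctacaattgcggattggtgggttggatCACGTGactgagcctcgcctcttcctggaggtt
Mnt: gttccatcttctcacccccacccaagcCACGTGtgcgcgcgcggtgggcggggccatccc
Mxd4: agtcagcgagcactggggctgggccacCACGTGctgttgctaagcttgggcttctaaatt

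The stretch of Max is chr12:76962246-76962305 on the minus strand, and its E-box starts 3 bases before the transcript start. That of Mlx is chr11:101087223-101087282 on the plus strand (E-box 40 bases before the start), that of Mnt is chr11:74830774-74830833 on the plus strand (123 bases) and that of Mxd4 is chr5:34187897-34187956 on the minus strand (219 bases). The related letters CACGCG, or CGCGTG on the other strand, were found only in the window of Mga, 1 of 9 members against 20.2% of tested genes. Neither motif stands in the 3 windows of Mxi1, the member that changed most, or in those of Mxd1, Mxd3 and Mycn. A match of letters is no evidence of binding, and no match says only that these letters are missing from the window.

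The partners of Mlx were measured beside it. Mlxip, which encodes MondoA, was lower in GSK, with 119 ± 1.81 CPM in Veh against 98.0 ± 5.30 CPM in GSK (SD, n = 3), a log2 FC of -0.27 ± 0.050 (SE, adjusted p = 0.0013, edgeR). Mlxipl, which encodes ChREBP, was under 1 CPM in every sample and did not pass. Of the 2 listed targets of MondoA and Mlx, Txnip, an inhibitor of glucose uptake and thioredoxin, fell from 408 ± 33.9 to 269 ± 40.3 CPM (SD, n = 3), a log2 FC of -0.60 ± 0.12 (SE, adjusted p = 0.016, edgeR). Its region overlaps Gm15441. The other target, the arrestin-domain gene Arrdc4, was counted at 25 to 61 reads per sample and missed the threshold (log2 FC -0.44, adjusted p = 0.27, edgeR). The Myc relative Mycl averaged 1.18 ± 0.355 CPM in Veh against 1.81 ± 0.0351 CPM in GSK (adjusted p = 0.13, edgeR), and the Myc-binding proteins Mycbp and Mycbp2 had log2 FCs of 0.10 and -0.11 and did not pass either.

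Among the cofactors, 9 of 18 coactivators and partners of Myc were higher in GSK (16.6% of all genes tested were) and 0 were lower (15.5% of all). Their median log2 FC was 0.14. At an unadjusted p under 0.05, 1 was lower, and DESeq2 called 7 higher and 0 lower. Their changes were small, with 0 past 1.5-fold. They included Pa2g4, a growth-regulated nucleolar protein (log2 FC 0.39), the helicase Ruvbl1 (0.30), the histone-methylation scaffold Wdr5 (0.25) and the chromatin remodelling subunit Actl6a (0.21). Without GSK replicate 1, 5 were higher. Of 18 subunits of the Sin3-HDAC corepressor that Mxd and Mnt proteins recruit, 3 were higher (16.6% of all genes tested were) and 4 lower (15.5% of all), with a median log2 FC of -0.0063. These shares are near those of all genes. Sap30 and Ing2, both subunits of that complex, fell (log2 FCs -0.46 and -0.47), whereas the deacetylase Hdac2 (0.26) and the histone-binding Rbbp7 (0.28) rose.

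Of 14 genes of the Mga-PRC1.6 complex, 5 were higher, 1 was lower and 8 did not pass (median log2 FC 0.13). Of all genes tested, 16.6% were higher and 15.5% lower. L3mbtl2, which binds chromatin (0.38), Rybp (0.39) and Wdr5, which is in both lists, rose, and the E2F partner Tfdp2 fell (-0.62, past 1.5-fold). Its relative Tfdp1, which had more reads, rose (0.24, from 262 ± 11.2 to 309 ± 23.4 CPM). Of 16 germline genes that PRC1.6 is known to silence, 6 were among the genes counted and 3 had enough counts to be tested. Of these 3, 0 passed in either direction by edgeR's adjusted p, at an unadjusted p under 0.05 or with DESeq2, with log2 FCs from -0.0035 to 0.18. As these 3 already had reads in Veh, they cannot show whether silent genes of the list changed. Of those counted but not tested, Ddx4 had 4 to 10 reads per sample in Veh and 2 to 4 in GSK. Dazl had 2 to 10 reads in Veh and 5 to 8 in GSK, and Sycp3 had 0 or 1 in both groups. Of 19 genes that set the stability of Myc protein, 3 were higher and 1 was lower, which is no more than the 16.6% and 15.5% of all genes tested. The PP2A inhibitor Set (0.33), the nucleolar deubiquitinase Usp36 (0.28) and the kinase Pim1 (0.11) rose, and Trpc4ap, a part of a ubiquitin ligase that acts on Myc, fell (-0.26). Pim1 was near the threshold (adjusted p = 0.042, edgeR). It did not pass without any 1 of Veh replicates 1, 2 and 3 or GSK replicates 1 and 3 (adjusted p 0.070 to 0.157) or with DESeq2 (0.054).

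Lists of known Myc targets differed in their counts, which stand beside 16.6% of all genes tested that were higher and 15.5% that were lower. Of 30 targets in ribosome biogenesis, 28 were higher in GSK and 0 were lower, with a median log2 FC of 0.47. DESeq2 gave the same counts, and 0 were lower at an unadjusted p under 0.05 in edgeR. The rRNA methyltransferase Nop2 went from 78.0 ± 3.06 to 120 ± 9.92 CPM (SD, n = 3), a log2 FC of 0.62 ± 0.061 (SE, adjusted p = 1.9e-05, edgeR), and the U3 snoRNP protein Rrp9 from 33.6 ± 1.83 to 57.3 ± 5.93 CPM (log2 FC 0.77 ± 0.078 SE). The ribosome assembly factor Bop1 and the RNA helicase Ddx21 had log2 FCs of 0.63 and 0.49. The 2 that did not pass were Npm1 (0.021) and Polr1c (0.032). Most of these rises were moderate, with 6 of the 28 past 1.5-fold.

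Of 23 targets in polyamine, nucleotide and folate metabolism, 14 were higher and 1, the mitochondrial folate enzyme Mthfd1l, was lower (median log2 FC 0.39). Of all genes tested, 16.6% were higher and 15.5% lower. Spermidine synthase, encoded by Srm, went from 58.8 ± 4.62 to 98.7 ± 11.5 CPM (SD, n = 3; log2 FC 0.75), and the folate enzymes Shmt1 and Mthfd1 had log2 FCs of 0.73 and 0.52. Nme1, which makes nucleoside triphosphates, rose by less (0.45). Of 20 tested targets listed under the cell cycle and translation, 12 were higher and 2, E2f2 and Tfap4, were lower (median 0.30). Those higher included the chaperone genes Hspd1, Hspe1 and Phb and the DNA repair gene Apex1, which belong to neither process. Among the genes of the cell cycle, Ccnd2 and Cdc25a were higher, whereas Cdk4, Ccne1, E2f1 and Cks1b did not pass. Cyclin D2, encoded by Ccnd2, went from 434 ± 23.5 to 579 ± 7.85 CPM (log2 FC 0.42), and the translation genes Eef1e1 and Eif4g1 (0.55 and 0.33) and the mitochondrial chaperone Phb (0.39) rose as well. Without Veh replicate 3, 0 of these genes were lower, and without Veh replicate 2 or GSK replicate 1 or 3, 1 was.

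Of 18 targets listed under glucose and glutamine use, 9 were lower and 5 higher, with a median log2 FC of -0.087. Of all genes tested, 15.5% were lower and 16.6% higher. The 9 lower genes were those of glucose uptake and glycolysis, so the median joins unlike parts. The 5 higher genes included Tfrc, which encodes the transferrin receptor and serves neither glucose nor glutamine use. The glycolytic enzymes Aldoa (-0.34), Pgk1 (-0.36) and Gapdh (-0.29) and the glucose transporter Slc2a1 (-0.38) all fell, and none of the 9 was past 1.5-fold. These glucose genes are also known as targets of hypoxia-inducible factors, so the list does not belong to Myc alone. The other lists, that of repressed genes included, were not checked for shared regulators. In the glucose and glutamine list, 3 were higher when Veh replicate 1, 2 or 3 or GSK replicate 1 or 3 was left out. The number was also 3 on library totals without TMM scaling. Of 10 tested genes that Myc is known to repress, 6 were lower and 2 higher (median -0.45). The cell-cycle inhibitor Cdkn1b fell from 134 ± 4.06 to 77.4 ± 7.56 CPM (log2 FC -0.79), and Ndrg1 (-1.13) and the antiproliferative gene Btg2 (-0.74) fell too. Cdkn2b, which encodes another inhibitor of cyclin-dependent kinases, rose from 13 ± 1.32 to 29.4 ± 2.15 CPM (1.17). The other higher gene, Cdkn1a, which also encodes such an inhibitor, rose by less, from 146 ± 7.66 to 168 ± 11.2 CPM (0.21). Without Veh replicate 1 or GSK replicate 1, Cdkn2b was the only gene of this list that was higher.

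**Figure D4:**
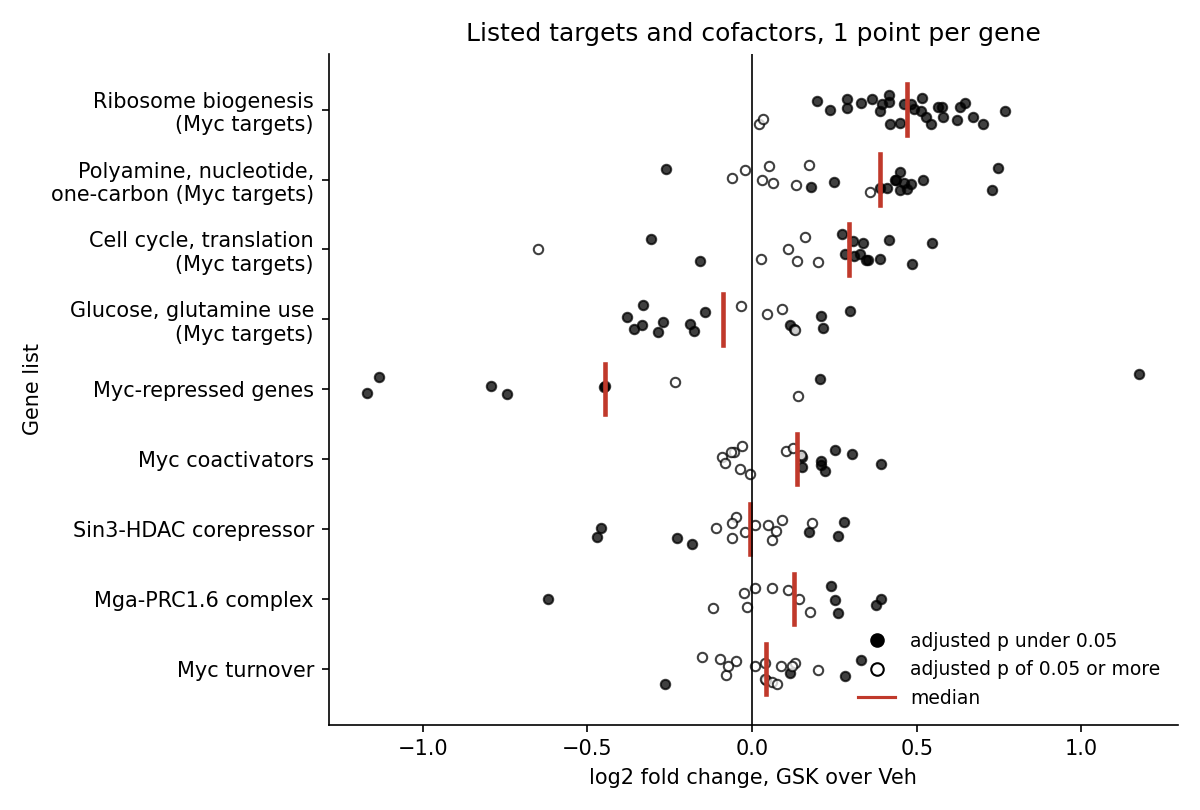
Each point is the log2 fold change of GSK over Veh (horizontal axis) of 1 gene in 9 lists of targets and cofactors, filled at an adjusted p under 0.05 (edgeR) and open otherwise, with a red line at the median of each list. The medians are 0.47 for ribosome biogenesis, 0.39 for polyamine, nucleotide and one-carbon synthesis, -0.087 for glucose and glutamine use and -0.45 for genes that Myc represses.

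CACGTG stood in the windows of 5 of the 26 ribosome biogenesis genes that have one (19.2%), in 5 of 20 polyamine, nucleotide and folate genes (25.0%), in 8 of 18 cell cycle and translation genes (44.4%), in 3 of 14 glucose and glutamine genes (21.4%) and in 1 of 9 genes of the repressed list (11.1%). The share in tested genes was 11.7%. The regions of Bop1, Ccnd2, Cdc25a, Cdk4, Cdkn2b, E2f1, Eif4g1, Hspd1, Hspe1, L3mbtl2, Mthfd1, Mycbp, Pim1, Rbbp7, Ruvbl1, Rybp, Slc2a1, Tfdp2 and Trpc4ap overlap other annotated genes. So do those of Fbxw7, Mthfd1l, Sycp3 and, of the markers below, Adgre1, Cd74, Clec9a, Csf1r, Eomes, Fcgr3, Flt3, Ms4a1 and Pax5. Gapdh, Aldoa, Npm1 and Set have near-identical copies elsewhere in the genome. The counts of all these genes are uncertain where reads could be shared.

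Over the 6 samples, the genes whose log2 CPM followed Myc most closely were Ddx19b, Pcsk4 and Fbxw7, with Pearson's r of 0.991, 0.990 and 0.984. They share the libraries and the treatment with Myc, and with 6 samples such values are a description only. Kdm1a, which encodes LSD1 itself, averaged 92.8 ± 5.45 CPM in Veh against 87.1 ± 3.54 CPM in GSK (SD, n = 3), with overlapping groups (adjusted p = 0.22, edgeR). An inhibitor of the protein need not change this RNA.

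Library totals ranged from 18288447 to 19846720 counts. Of 9 CD8 T cell markers in the table, Cd3d, Cd3e, Cd3g, Cd8a and Cd8b1 among them, the summed level was 3366 to 3513 CPM in Veh and 3261 to 3458 CPM in GSK. By edgeR's adjusted p, 2 of the 9 were higher and 4 lower, where 16.6% and 15.5% of all genes tested were. The summed level of 8 B cell markers was 33.1 to 34.3 CPM in Veh and 27.4 to 39.0 CPM in GSK, with Ms4a1, Pax5 and Ebf1 under 10 reads in every sample. Of the 4 tested, Cd22 (6.27-fold, on 4 to 11 reads in Veh and 44 to 54 in GSK) and Cd74 (2.24-fold) were higher and H2-Ab1 was lower (0.438 times). For 8 myeloid markers it was 11.8 to 16.8 and 11.0 to 14.7 CPM, with Csf1r, Cd14 and Adgre1 under 10 reads, and for 4 dendritic cell markers 3.27 to 4.84 and 1.77 to 2.62 CPM, with Flt3 and Clec9a under 10 reads. Of the 5 myeloid markers tested, Tyrobp (2 to 21 reads per sample) was higher (2.70-fold) and Fcgr3 (7 to 29 reads) lower (0.432 times) in edgeR, and DESeq2 called 0 of them. Of the 2 dendritic cell markers tested, Itgax was lower (0.387 times). The 4 markers of CD4 and regulatory T cells summed to 43.9 to 53.2 and 40.7 to 45.9 CPM, and 1 of them, Cd40lg, was higher (2.87-fold, on 4 to 29 reads per sample). The calls of H2-Ab1, Cd40lg, Tyrobp and Fcgr3 were each lost without Veh replicate 1, Veh replicate 3 or GSK replicate 1 (adjusted p up to 0.10, 0.081, 0.16 and 0.17 in edgeR). That of H2-Ab1 was also lost without Veh replicate 2, and those of Tyrobp and Fcgr3 without GSK replicate 2 or 3. Most of the NK cell markers are also expressed by activated CD8 T cells. The NK cell markers summed to 757 to 775 CPM in Veh and 1171 to 1255 CPM in GSK, with Ncr1 under 10 reads. Of the 4 tested, 3 were higher, where 16.6% of all genes tested were. These were Eomes (204 ± 9.38 to 433 ± 17.7 CPM, log2 FC 1.08), Nkg7 (0.47) and Klrk1 (0.43). The study also reports a rise of Eomes with GSK in its CD8 T cells. The part of these markers in the results above was not tested. Of 16 proliferation genes, 2 (Mcm2 and Mcm3) were higher and 1 (Mki67) was lower, which is no more than the 16.6% and 15.5% of all genes tested. Mcm3 did not pass without Veh replicate 1 or 3 or GSK replicate 1 or 3 (adjusted p up to 0.10, edgeR).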

How the data were processed

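The authors trimmed the reads with Trimmomatic, mapped them to mouse GRCm38 with hisat2 (version 2.1.0) and obtained reads per gene from HTSeq-count (version 0.11.2), and the deposited values are these raw counts. The annotation release and the strand setting are not given in the sources used here. GSK and Veh (all 6 samples) were compared by edgeR's quasi-likelihood test (edgeR version 4.0.16 under R version 4.3.3, robust fit), after filterByExpr and TMM scaling. Benjamini-Hochberg adjustment covered every tested gene. A standard error is the log2 fold change over the root of the F statistic. Alternatives were DESeq2 (version 1.42.0), RLE factors, library totals, 2 other count filters, the replicate block and leaving out each sample. The test was checked on simulated counts. Samples were grouped by their titles.

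Members and gene lists were chosen with earlier results of these data known. Beside the members, the text names up to 4 passing genes of the smallest p per list, all tested genes of lists of at most 5, Kdm1a and the 3 genes most like Myc. Npm1, Polr1c, Mthfd1l, Tfrc, Cdkn1a, Tfdp1, Ddx4, Dazl and Sycp3 were named after their values were seen. So were further genes of the cell cycle and translation list, overlapping genes and single markers. The study names separate mice as replicates, and no pairing of cultures is given. Of the listed genes, 2 are not reported here and were left out of their lists. A protein comparison was planned but not run here.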

Additional observations from a re-analysis of the deposited data

How the results depend on the processing

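The members' calls by adjusted p (2 higher, 3 lower) did not change with DESeq2, RLE factors, library totals, either other count filter or without 1 sample, except that Mnt was lost without Veh replicate 2 (adjusted p = 0.0503, edgeR) and Mga was gained without GSK replicate 2 (0.038). With the replicate block, Myc was also higher (log2 fold change 0.17, adjusted p = 0.038, edgeR). It changed no other member's call, and Pim1 did not pass with it (0.091). Same-numbered samples' deviations correlated at -0.052, -0.081 and 0.16. With 3 samples per group this cannot settle whether they came from the same mouse, which the sources used here do not say. With 1 sample left out, 1 to 2 members were lower past 1.5-fold, 1288 to 2090 of all genes were higher by the adjusted p (1288 without GSK replicate 1), 5 to 8 coactivators were higher, 3 to 6 glucose and glutamine targets were higher, 0 to 3 cell cycle and translation targets were lower, and 1 to 2 repressed genes were higher. The glucose and glutamine count was also 3 with library totals and with the replicate block. The cause was not tested. Mycn and Mxd1, which never passed, turned direction in 1 case each, with log2 fold changes from -0.083 to 0.32 and from -0.0063 to 0.25.

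With the union of all exons as length, an alternative chosen after seeing the data, Myc made up 53.4% of the Max partners in Veh and 61.3% in GSK, and its ratio to the 5 antagonists was 1.46 and 2.12. The planned length comparison was not run, since the count table gives no gene length. The first principal component, not used in the report, held 56.0% of the variance over 500 genes and 53.2% over all tested genes. Low counts limit the precision for Mycn, Mycl, Mlxipl and Arrdc4.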
